A study of Mus musculus with 2 samples.

Results

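The genes described here are 40 immediate early, early response and heat shock genes, measured in single cells of whole mouse mesentery. They were taken by symbol from a fixed list, by a rule with no threshold on measured values but drawn up with earlier results of these data known, and all 40 matched exactly 1 of the 27998 gene rows of the count matrix. By role they are 9 AP-1 and ATF factors, 10 EGR, KLF, NR4A and MYC factors, 8 feedback and mRNA decay factors, 6 other early response genes and 7 heat shock proteins. The first 33 are called the early response members below.

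Immediate early genes are transcribed within minutes of a stimulus, without new protein synthesis, by factors already present in the cell such as serum response factor and CREB. Many of their products are transcription factors (FOS and JUN proteins form the AP-1 dimer), and others end the response by removing phosphates from kinases or by breaking down mRNA. Heat shock genes are switched on by heat shock factors when proteins unfold, and their products are chaperones. Enzymatic release of cells from a solid tissue at warm temperature is known to switch on genes of both kinds, so in dissociated tissue their levels may differ from those in the animal. The question here is which cell classes carried these transcripts and how far their levels followed fibroblast subsets.

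The samples were 2 untreated, wild-type, male C57BL/6N mice, an inbred strain, with 1 library per mouse. Both animals form 1 group. The labels give no age at harvest, and no tissue that was not digested was analysed here. The mesentery was taken apart whole with Liberase DH (a blend of enzymes) in medium with 4% albumin. Cells were captured with the Chromium V2 3′ chemistry, for a study of PDGFRα+ gp38+ mesenchymal cells and group 2 innate lymphoid cells (ILC2).

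Library 1 held 1517 barcodes with 5137671 UMIs (unique molecular identifiers, each standing for 1 captured transcript), and library 2 held 1687 barcodes with 5563521. The libraries shared 0 cell barcodes. After filtering, 1445 and 1655 cells fell into 18 clusters, of which 17 were named from marker genes, giving 11 classes with the suffix "-like". The members were kept out of the clustering. The stromal classes were fibroblast-like (463 and 530 cells in library 1 and library 2), mesothelial-like (67 and 177), pericyte-like (73 and 85) and endothelial-like (181 and 162). The myeloid classes were macrophage-like (122 and 130), monocyte-like (81 and 130) and dendritic-like (31 and 45). The lymphoid classes were T-like (156 and 157), B-like (134 and 102), NK- or ILC1-like (60 and 55) and ILC2-like (72 and 60).

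Some classes carried transcripts of other cells. The 11 blood endothelial markers summed to 21029 and 15742 CPM in pericyte-like cells against 32522 and 22675 in endothelial-like cells (CPM, UMIs per 1000000 UMIs of a summed class; values are given for library 1 and then library 2 throughout). Pericyte-like cells therefore cannot be read as pericytes alone, and results that rest on them are given without them as well. Erythroid markers reached 32229 CPM in endothelial-like cells of library 2, against 16.3 in library 1, through 10 cells with over 1% erythroid UMIs. Adipocyte markers stood at 1166 and 2177 CPM in endothelial-like cells. In monocyte-like cells the 10 fibroblast markers summed to 6354 and 7582 CPM, above the 10 monocyte markers (6090 and 5105), and in macrophage-like cells they summed to 348 and 2362 CPM beside macrophage markers at 18598 and 16565. The part of these transcripts in the member levels was not tested, other than by fits without the pericyte-like class, without the monocyte-like class and without cells over 1% erythroid UMIs.

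Promoters of 4 members are shown because these genes stood at the ends of the patterns below: Fos, high in 3 of the 4 stromal classes and in 1 fibroblast-like cluster; Nr4a1, highest in ILC2-like cells and in another fibroblast-like cluster; and Hspa1a and Hspb1, the heat shock genes that differed most between stromal cells and leukocytes. Each runs from 250 bases before to 50 bases after the RefSeq transcript start on GRCm38.p6. Capitals mark TGACG or its reverse complement CGTCA, the core of the cAMP response element to which CREB and ATF proteins bind, in Fos and Nr4a1, and the heat shock element core GAANNTTC in Hspa1a and Hspb1.
Fos promoter, chr12:85473640-85473939, plus strand: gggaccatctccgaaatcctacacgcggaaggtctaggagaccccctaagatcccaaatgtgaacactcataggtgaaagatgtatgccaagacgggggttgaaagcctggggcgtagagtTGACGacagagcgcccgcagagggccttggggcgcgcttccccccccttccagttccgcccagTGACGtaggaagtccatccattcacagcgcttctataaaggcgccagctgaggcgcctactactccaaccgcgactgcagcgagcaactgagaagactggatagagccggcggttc
Nr4a1 promoter, chr15:101266596-101266895, plus strand: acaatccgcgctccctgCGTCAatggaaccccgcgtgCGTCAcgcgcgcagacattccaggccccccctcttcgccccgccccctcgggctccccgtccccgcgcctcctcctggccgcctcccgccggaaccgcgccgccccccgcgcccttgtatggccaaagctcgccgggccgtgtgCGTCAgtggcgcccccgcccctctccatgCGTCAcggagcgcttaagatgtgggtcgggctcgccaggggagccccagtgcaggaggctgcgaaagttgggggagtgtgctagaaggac
Hspa1a promoter, chr17:34972107-34972406, minus strand: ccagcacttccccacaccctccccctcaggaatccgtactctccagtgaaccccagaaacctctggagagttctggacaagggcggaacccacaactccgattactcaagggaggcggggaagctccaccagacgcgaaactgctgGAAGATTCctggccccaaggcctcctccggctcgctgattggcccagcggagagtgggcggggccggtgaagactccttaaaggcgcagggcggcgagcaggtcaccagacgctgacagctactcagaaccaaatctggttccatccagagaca
Hspb1 promoter, chr5:135887669-135887968, plus strand: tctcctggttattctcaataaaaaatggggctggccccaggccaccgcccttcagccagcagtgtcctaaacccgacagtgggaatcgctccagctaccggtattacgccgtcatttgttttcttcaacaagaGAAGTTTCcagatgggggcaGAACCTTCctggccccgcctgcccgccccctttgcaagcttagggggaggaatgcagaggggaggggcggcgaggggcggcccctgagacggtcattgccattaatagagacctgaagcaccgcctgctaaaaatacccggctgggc

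The Fos promoter held 2 matches to TGACG and the Nr4a1 promoter 4. RefSeq promoters were found for 33 of the 40 members, 28 early response members and 5 heat shock proteins. Shares are given per gene, a gene counting when any of its promoters matched. TGACG, searched on both strands, lay in 16 of the 28 early response members and in 23.0% of all 27025 genes with promoters of the same length. These 16 included all 3 NR4A genes, Fos, Fosb, Junb, Atf3, Klf2, Klf4 and Dusp1. TGACG also lay in 2 of the 5 heat shock members, Dnajb1 and Hspb1, and is not marked in the Hspb1 sequence above. The full element TGACGTCA, which contains TGACG, lay in 2 of the 28 (Dusp1 and Btg2) and in 2.03% of all genes. The CArG box, the element to which serum response factor binds, lay in Egr2 and Zfp36 and in 1.81% of all genes. GAANNTTC lay in 4 of the 5 heat shock members (Hspa1a, Hspa1b, Hspb1 and Hsph1), in 2 of the 28 early response members and in 9.04% of all genes. The other form of this core, TTCNNGAA, lay in 1 of the 5 (Hsph1), 1 of the 28 and 9.60% of all genes. Either form lay in 4 of the 5, 3 of the 28 and 17.0% of all genes. A match is a description of these letters in this window and shows neither binding nor its absence.

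The early response members took the largest share of UMIs in pericyte-like, endothelial-like and ILC2-like cells and the smallest in B-like cells. Their share was 3.68% ± 0.152 (SD, n = 2) in pericyte-like cells, 3.53% ± 0.454 in endothelial-like cells and 3.20% ± 0.529 in ILC2-like cells, the cytokine-producing innate lymphocytes of the tissue. The ranges of these 3 classes over the libraries overlapped. Within each library ILC2-like cells were the lowest of the 3, at 3.58 and 2.83%. Pericyte-like cells (3.79 and 3.57%) and endothelial-like cells (3.85 and 3.21%) changed places between the libraries. Fibroblast-like cells stood at 2.71 and 2.67% and mesothelial-like cells, which cover the surface of the mesentery, at 2.46 and 2.71%. Macrophage-like cells stood at 1.94 and 2.11%, and the monocyte-like, dendritic-like, T-like and NK- or ILC1-like classes all lay between 1.39 and 1.72%. B-like cells were lowest, at 0.957 and 0.741%, below every other class in both libraries.

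The 7 heat shock proteins gave another order, in which the vascular classes stood first and ILC2-like cells were low. Endothelial-like cells had 0.824 and 0.401% of their UMIs in these genes, and pericyte-like cells 0.592 and 0.324%. The other 9 classes lay between 0.144 and 0.320%. ILC2-like cells were at 0.211% in library 1 and fibroblast-like cells at 0.206%, and in library 2 fibroblast-like cells were lowest, at 0.144%. Across the 11 classes, which share their libraries, the early response and heat shock shares had a Pearson r of 0.64 and a Spearman rho of 0.45, given as a description. In all 11 classes the heat shock share was higher in library 1 than in library 2.

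**Figure D1:**
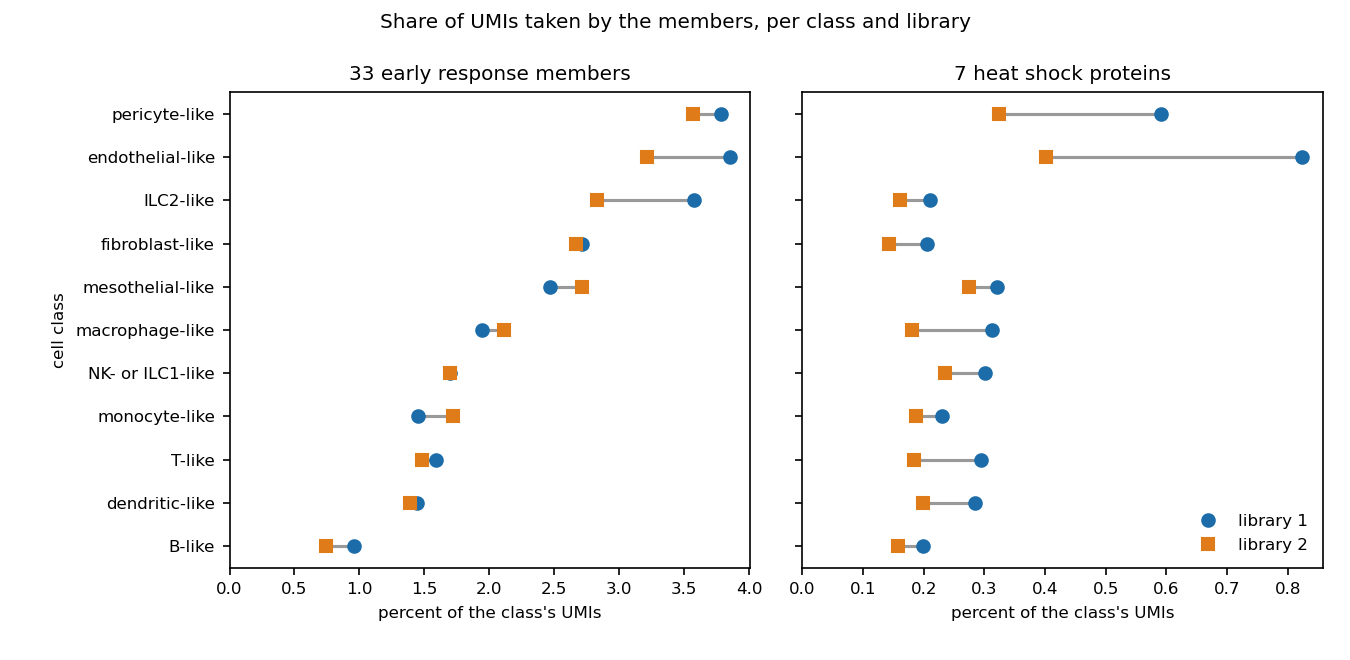
Percent of each class's UMIs taken by the 33 early response members (left) and the 7 heat shock proteins (right), with 1 circle for library 1 and 1 square for library 2, joined by a line. Pericyte-like, endothelial-like and ILC2-like cells lead on the left, endothelial-like and pericyte-like cells on the right, and the circle lies right of the square in every class on the right.

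The median cell put the same classes at the top and the bottom. Cells with at least 1000 UMIs were each thinned to 1000 UMIs, and cells with fewer were left out. Thinning gives these cells equal depth but leaves the expected share of a cell unchanged. The median cell had 3.9 and 3.4% of its UMIs in early response members in the endothelial-like class, 3.7 and 3.6% in the pericyte-like class and 3.45 and 2.8% in the ILC2-like class. It had 2.7 and 2.6% in the fibroblast-like class and 0.9 and 0.7% in the B-like class. Cells of a class still varied: the 10th and 90th percentiles of fibroblast-like cells lay at 1.4 and 4.04% in library 1 and at 1.5 and 4.0% in library 2. In T-like cells the median was 1.35 and 1.4% and the 90th percentile 3.6 and 3.2%.

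AP-1 factors made up much of these shares, and different classes carried different FOS and JUN genes. Fos (chromosome 12, 85473890 to 85477273, GRCm38), the archetypal immediate early gene, stood at 3697 and 3324 CPM in pericyte-like, 3567 and 2921 in endothelial-like and 2854 and 3235 in mesothelial-like cells. It stood at 1104 and 1207 in fibroblast-like cells, 673 and 699 in ILC2-like cells, 517 and 468 in macrophage-like cells and 358 and 670 in monocyte-like cells. It was lowest in dendritic-like (285 and 247), T-like (249 and 249), NK- or ILC1-like (191 and 236) and B-like cells (99.9 and 55.3). Pericyte-like cells were highest in each library, though the ranges of the 3 highest classes overlapped. These 3 lay above fibroblast-like cells, which in turn lay above all leukocytes in both libraries.

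Junb, an AP-1 partner that in many settings dampens JUN, did not follow Fos. It reached 10018 and 6730 CPM in ILC2-like cells, the highest level of any member in any class. It stood at 4704 and 3853 in endothelial-like, 4517 and 3973 in NK- or ILC1-like, 4463 and 3630 in pericyte-like, 4115 and 3394 in fibroblast-like and 3835 and 3334 in T-like cells, an order in which each class overlapped the next. Macrophage-like (2482 and 2306), mesothelial-like (1938 and 1904), B-like (1496 and 1117), monocyte-like (1409 and 1539) and dendritic-like cells (1263 and 1242) lay below these. Across the 11 class means Junb had a Pearson r of only 0.37 with Fos, while the members most like Fos were Jun (0.94), Fosb (0.93), Hspb1 (0.91), Atf4 (0.90) and Klf4 (0.89). Dusp2 and Btg1 ran the other way, at -0.56 and -0.57. These correlations describe 11 classes that share 2 libraries.

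Among the zinc finger factors, Egr1 (chromosome 18, 34859823 to 34864984), a target of serum response factor, was almost a stromal transcript. It stood at 3302 and 4009 CPM in pericyte-like, 3296 and 3312 in endothelial-like, 2363 and 2741 in fibroblast-like and 2093 and 2511 in mesothelial-like cells. Monocyte-like cells had 628 and 1028 and macrophage-like cells 391 and 883. Fibroblast markers were higher in library 2 in these classes, and in T-like, endothelial-like and pericyte-like cells too. Their part in the Egr1 levels was not tested. The 4 lymphoid classes and dendritic-like cells lay between 8.52 and 145, and ILC2-like cells, so high for Junb, had 96.2 and 8.52, from 13 UMIs and 1 UMI. Every stromal value lay above every leukocyte value.

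Dusp1, a phosphatase that switches off MAP kinases and so limits the early response, was highest in mesothelial-like cells, at 1647 and 1471 CPM. It stood at 1123 and 866 in pericyte-like, 1088 and 802 in endothelial-like, 718 and 477 in ILC2-like, 563 and 741 in macrophage-like and 527 and 596 in fibroblast-like cells. Monocyte-like (369 and 471), dendritic-like (434 and 307), T-like (374 and 312) and NK- or ILC1-like cells (261 and 307) followed, and B-like cells had 40.6 and 35.5. The mesothelial-like class stood above all others in both libraries and B-like cells below all others, while the classes between them mostly overlapped.

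The heat shock proteins differed from one another. Hspa8, the constitutive HSC70 chaperone, was abundant in every class, from 1011 and 651 CPM in fibroblast-like cells, the lowest, to 4142 and 2081 in endothelial-like cells, the highest. It stood at 2901 and 1658 in pericyte-like, 2241 and 1718 in dendritic-like, 2128 and 1771 in NK- or ILC1-like, 2036 and 1420 in T-like and 1841 and 1018 in macrophage-like cells. ILC2-like (1635 and 1346), monocyte-like (1605 and 1402), B-like (1493 and 1295) and mesothelial-like cells (1059 and 903) completed the order. In most classes the gap between the libraries was as wide as the gap between neighbouring classes.

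Hspa1a, the stress-inducible HSP70, was instead largely stromal and macrophage-borne. It stood at 521 and 305 CPM in pericyte-like, 503 and 247 in endothelial-like, 445 and 254 in macrophage-like, 179 and 132 in mesothelial-like and 94.0 and 60.9 in fibroblast-like cells. T-like cells had 219 in library 1 and 16.8 in library 2, NK- or ILC1-like cells 90.3 and 0, and dendritic-like cells 64.8 and 6.03. Monocyte-like cells had 39.3 and 46.2 and B-like cells 6.25 and 7.90, and ILC2-like cells had 0 UMIs in both libraries, which allows up to 22.2 and 25.6 CPM (3 counts). Hspa1a (chromosome 17, 34969190 to 34972156, minus strand) and its near-identical neighbour Hspa1b (34956436 to 34959238) can share reads, so the division of UMIs between them is uncertain.

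Hspb1, the small chaperone HSP27, was low in leukocytes. It stood at 1733 and 760 CPM in endothelial-like, 1025 and 813 in mesothelial-like, 955 and 410 in pericyte-like and 189 and 112 in fibroblast-like cells. It stood at 57.5 and 52.7 in macrophage-like and 19.6 and 28.7 in monocyte-like cells, and between 0 and 14.8 in the dendritic-like and the 4 lymphoid classes. Every stromal value lay above every leukocyte value.

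**Figure D2:**
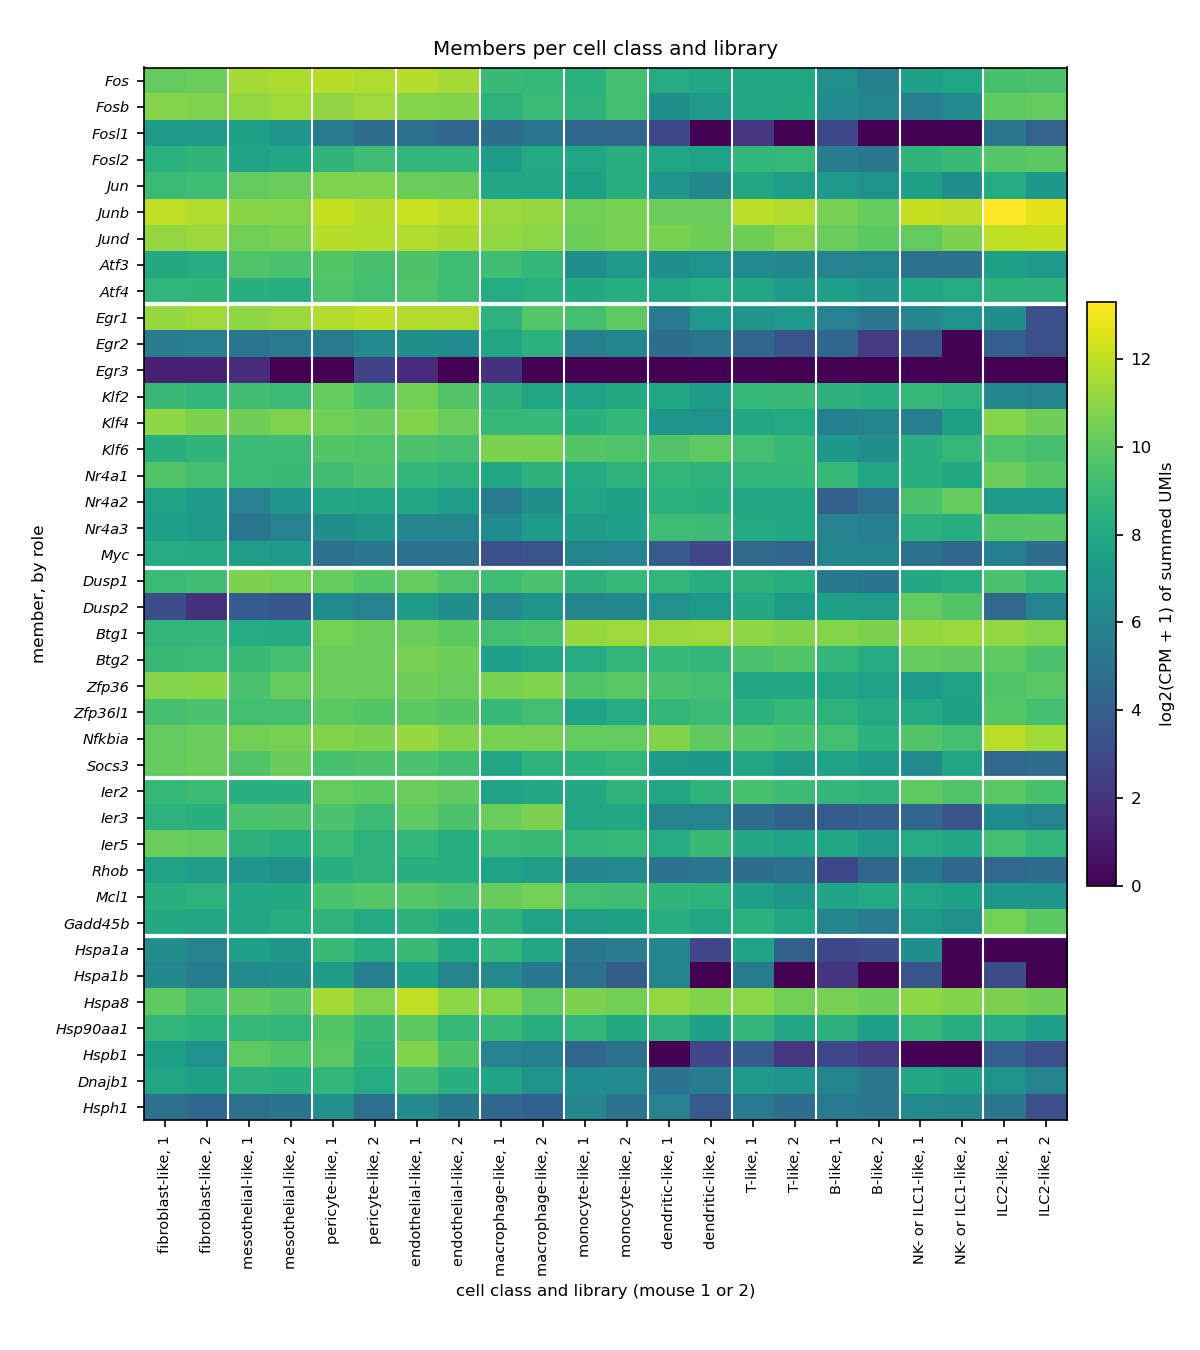
Level of each of the 40 members, as log2(CPM + 1) of summed UMIs, in the 11 classes and 2 libraries, with white lines between roles (AP-1 and ATF; EGR, KLF, NR4A and MYC; feedback and decay; other early response; heat shock). Fos, Fosb, Jun and Egr1 are bright in the 4 stromal classes, Junb is brightest in ILC2-like cells, Btg1 and Hspa8 are bright throughout, and Egr3 is dark in every class.

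In 8 of the 11 classes 1 or more members had their highest mean level. ILC2-like cells led for 7 members, and in all 7 both libraries lay above both libraries of the next class, which 3.7% of the 7550 genes tested did for this class: Fosl2, Junb, Jund, Nr4a1, Nr4a3, Nfkbia, the inhibitor of NF-κB, and Gadd45b, a stress-induced signalling protein. Macrophage-like cells led for 4, all 4 apart from the next class (5.97% of genes): Egr2, Ier3, Klf6 and Mcl1, an anti-apoptotic BCL2 relative. Pericyte-like cells led for 9, with 2 apart (4.75% of genes), and endothelial-like cells for 8, with 1 apart (4.29%). Fibroblast-like cells led for 5, with 3 apart (5.96%), namely Ier5, Klf4, Zfp36, Socs3 and Myc. NK- or ILC1-like cells led for Nr4a2, Dusp2 and Hsph1, with 2 apart (4.5%). Mesothelial-like cells led for Fosb, Fosl1 and Dusp1, with 1 apart (10.6%), and dendritic-like cells for Btg1, an antiproliferative factor that is high in resting lymphocytes. Egr3 had 9 UMIs in all classes together and was not tested.

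Stromal classes were then compared with leukocyte classes, each class weighing equally. Genes were called at an adjusted p under 0.05 in edgeR's quasi-likelihood test over all 7550 genes tested. Of the 39 members tested, 31 were higher in stromal cells and 5 were lower, where 36.9% of all genes were called higher and 21.6% lower. The median log2 fold change was 0.76 over the members and 0.20 over all genes tested. All 9 AP-1 and ATF factors were higher, with a median of 2.21, as were 6 of 9 EGR, KLF, NR4A and MYC factors, 6 of 8 feedback factors, 5 of 6 other early response genes and 5 of 7 heat shock proteins.

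The stromal members with the largest differences were Hspb1, Egr1, Fosl1, Ier3, Fosb and Hspa1a. Hspb1 averaged 975 and 524 CPM over the stromal classes against 15.9 and 14.7 over the leukocyte classes, a log2 fold change of 6.15 (SE 0.21, adjusted p = 2.08e-25). Egr1 averaged 2763 and 3143 against 202 and 337 (4.05, SE 0.12, adjusted p = 9.09e-28), and Fosb 2019 and 2177 against 324 and 400 (2.93, SE 0.09, adjusted p = 8.98e-28). Ier3, an early gene that limits apoptosis, differed by 2.94 (SE 0.13), and Fosl1 by 3.42 (SE 0.35). Hspa1a differed by 2.92 (SE 0.30), with 2.77 in library 1 alone and 4.32 in library 2 alone. In each of these the stromal mean exceeded the leukocyte mean in both libraries. Fos itself differed by 2.86 (SE 0.09), Jun by 2.40, and Junb by only 0.15 (adjusted p = 0.0268).

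The 5 members that were lower in stromal cells were of mixed role. Dusp2, a nuclear phosphatase of ERK found mainly in blood cells, differed by -2.58 (SE 0.22, adjusted p = 1.87e-13). Btg1 differed by -1.71 (SE 0.07, adjusted p = 1.53e-22). Nr4a3, an orphan nuclear receptor, averaged 96.0 and 101 CPM against 345 and 346 (-1.68, SE 0.13, adjusted p = 5.17e-15). Hspa8 (-0.32) and Klf6 (-0.23) were called by small margins, and without cells over 1% erythroid UMIs Klf6 was no longer called (-0.10, adjusted p = 0.35). Without the pericyte-like class 26 members were higher and 5 lower (36.7 and 21.1% of all genes), and without the monocyte-like class 27 and 4 (37.3 and 20.9%).

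Among genes of the same pathways outside the members, from lists grouped by known function, early response genes moved the same way. The other chaperones, as a list, did not. Of 37 other early response genes tested, 27 were higher in stromal cells and 6 lower, with a median of 1.04. The largest were Cyr61 (4.83) and Ctgf (4.66), matricellular targets of YAP and serum response factor, and Rgs2 was lowest (-4.12). Of 22 other chaperones 7 were higher and 8 lower, where 36.9% of all genes were higher and 21.6% lower. Their median was -0.08, against 0.20 over all genes, and Cryab (5.83), a small heat shock protein, and Hspb8 (4.92) were highest. Of 17 unfolded protein and amino acid stress genes 9 were higher and 4 lower.

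Within leukocytes, myeloid and lymphoid classes divided the members between them. Of 39 members 16 were higher in myeloid classes and 8 lower, where 21.4% of all genes were higher and 15.3% lower, and the medians were 0.27 for members and 0.19 for all genes. Ier3 averaged 523 and 638 CPM in myeloid classes against 37.1 and 25.6 in lymphoid classes (log2 fold change 3.52, SE 0.25, adjusted p = 4.63e-15). Mcl1 averaged 742 and 821 against 189 and 180 (1.95, SE 0.13, adjusted p = 1.68e-15). Egr2, a macrophage-associated zinc finger factor, differed by 2.92 (SE 0.41), Hspa1a by 3.16 (SE 0.71), Hspa1b by 2.66 (SE 0.69) and Egr1 by 2.24 (SE 0.21). The value of Egr2 was 2.17 in library 1 alone and 4.84 in library 2 alone.

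Lymphoid classes were higher for Junb, Ier2, Btg2, Dusp2, Nr4a1, Fosl2, Btg1 and Myc. Junb averaged 1718 and 1695 CPM in myeloid classes against 4966 and 3789 (-1.11, SE 0.07, adjusted p = 4.09e-16). Ier2, a nuclear early response protein, differed by -1.23, Btg2 by -1.16, Dusp2 by -1.04, Myc by -0.97 and Nr4a1 by -0.42. Without the monocyte-like class, which carried fibroblast markers, 18 members were higher and 6 lower (18.5 and 12.2% of all genes), with a median of 0.42 over members and 0.11 over all genes. Egr1 then differed by 1.75 and Myc by -1.78, and Nr4a1 was no longer called (-0.29, adjusted p = 0.159). Of 37 early response genes outside the members 12 were higher in myeloid classes and 9 lower, with Ptgs2 (3.47), which encodes the prostaglandin-forming enzyme COX-2, and Trib1 (3.12) among the higher and Rgs2 (-2.66) among the lower. Of 22 other chaperones 5 were higher and 7 lower, and of 17 unfolded protein and amino acid stress genes 8 were higher and 1 lower. The sign of Myc turned to 0.89 at a clustering resolution of 0.5, at which the dendritic-like class had no match. The lymphoid side changed at that resolution too. The T-like class held 86 cells in place of 313, and the NK- or ILC1-like class 342 in place of 115. The part of each change was not tested.

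ILC2-like cells differed from the other lymphoid classes in many early response members. Of 39 members 21 were higher and 3 lower, where 7.35% of all genes were higher and 2.15% lower. The median was 1.07 over members and -0.08 over all genes. AP-1 and ATF factors were higher in 8 of 9 cases with a median of 1.84, as were 4 of 9 EGR, KLF, NR4A and MYC factors and 5 of 8 feedback factors. Of the 7 heat shock proteins 0 were called in either direction by edgeR and 0 by DESeq2, with 1 at an unadjusted p under 0.05 in each. Their fitted values ran from -7.03 to 2.49. Few of all genes were called here, so a count of 0 among 7 does not set the heat shock proteins apart. Of 37 early response genes outside the members 21 were higher, among them Plk2 (4.82), Rgs1 and Maff (3.33), and of the other chaperones Dnaja1 (2.36), Dnajb6 (1.64) and Hspa4 (1.28) were higher. The classes compared with ILC2-like cells were T-like, B-like and NK- or ILC1-like.

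Klf4, a factor better known from epithelia and myeloid cells, stood at 1850 and 1354 CPM in ILC2-like cells, against a mean of 115 and 175 in the other lymphoid classes (3.90, SE 0.20, adjusted p = 7.09e-19). Fosb stood at 1021 and 1090 against 127 and 140 (3.46, SE 0.18), and Gadd45b at 1443 and 988 against 190 and 129 (3.44, SE 0.21). Nfkbia stood at 3899 and 2820 against 785 and 575 (2.51, SE 0.14), and Nr4a3 at 895 and 903 against 235 and 208 (2.56, SE 0.20). For each of these 5 genes both ILC2-like libraries lay above both means of the other lymphoid classes. Fos (2.26), Dusp1 (2.12), Jund (1.84), Junb (1.79) and Nr4a1 (1.77) were higher as well. Fosl1 had the largest fitted value (4.60, SE 1.17, adjusted p = 0.00604) at a low level, 37.0 and 17.0 CPM against 3.21 and 0.

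The 3 members lower in ILC2-like cells were Dusp2, Socs3 and Klf2. Dusp2 stood at 22.2 and 59.6 CPM against 511 and 381 (-2.87, SE 0.39, adjusted p = 3.06e-07). Socs3, a feedback inhibitor of cytokine receptors, stood at 22.2 and 25.6 against 170 and 181 (-2.69, SE 0.48, adjusted p = 5.83e-05). Klf2, a factor of lymphocyte recirculation and quiescence, stood at 74.0 and 59.6 against 443 and 402 (-2.47, SE 0.33, adjusted p = 1.56e-07). The ILC2-like values lay below the other lymphoid means in both libraries for all 3. Egr1 (-0.42, adjusted p = 0.755) and Jun (0.67, adjusted p = 0.16) did not pass the test.

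Against the other stromal classes, fibroblast-like cells were lower for more members than they were higher for. Of 39 members 9 were higher and 20 lower, where 21.9% of all genes were higher and 21.3% lower. The median was -0.42 over members and -0.03 over all genes. All 7 heat shock proteins were lower, with a median of -0.84. The 9 that were higher were Myc, Ier5, Fosl1, Nr4a3, Zfp36, Socs3, Nr4a1, Klf4 and Junb. Without the pericyte-like class, whose cells carried endothelial markers, 11 were higher and 16 lower (20.7 and 17.3% of all genes), and the median was -0.15 over members and close to 0 over all genes.

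Myc, a transcription factor induced by growth factors, reached 293 and 281 CPM in the fibroblast-like class against a mean of 78.3 and 68.5 in the other stromal classes (2.55, SE 0.13, adjusted p = 1.54e-19). Ier5, a factor that acts with heat shock factor 1, stood at 1221 and 1106 against 451 and 338 (1.72, SE 0.15, adjusted p = 7.96e-13). Zfp36, also called tristetraprolin, which speeds the decay of cytokine mRNAs, stood at 1858 and 1933 against 1126 and 1192 (0.87, adjusted p = 9.08e-07). These 3 were higher in both libraries. On the other side, Fos stood at 1104 and 1207 against 3372 and 3160 (-1.35, SE 0.16, adjusted p = 3.45e-09). Hspb1 stood at 189 and 112 against 1238 and 661 (-2.46, SE 0.21, adjusted p = 3.99e-13), and Hspa1a at 94.0 and 60.9 against 401 and 228 (-1.76, SE 0.25, adjusted p = 1.84e-07). Atf3 (-1.22) and Jun (-1.14) were lower too, so fibroblast-like cells were lower for some AP-1 genes and not for others, with Fosb (-0.14) and Jund (0.07) not called. Of 37 early response genes outside the members 12 were higher and 15 lower, among them Ptgs2 (3.77) and Errfi1 (2.08) on the higher side and Ier5l (-3.30), Dusp6 (-3.26) and Klf10 (-2.65) on the lower. Of 22 other chaperones 4 were higher and 8 lower, and of 17 unfolded protein and amino acid stress genes 7 were higher and 3 lower.

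Endothelial-like cells, compared with the mean of the other stromal classes, had 19 of 39 members higher and 5 lower, where 18.3% of all genes were higher and 12.2% lower. The median was 0.48 over members and 0.03 over all genes. This comparison shares its sums with the one for fibroblast-like cells. Dusp2 stood at 149 and 94.2 CPM against 36.1 and 23.7 (2.83, SE 0.26, adjusted p = 5.01e-12). Hspb1 stood at 1733 and 760 against 723 and 445 (1.40, SE 0.17, adjusted p = 6.5e-09), and Hspa8 at 4142 and 2081 against 1657 and 1071 (1.31, SE 0.14, adjusted p = 1.7e-10). Of the heat shock proteins 5 of 7 were higher, Hsph1 (0.66) and Hspa1b (0.55) being the others. Klf2, known in endothelium as a gene induced by shear stress, was higher by 0.82 and stood at 1422 and 830 CPM.

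The members lower in endothelial-like cells were Fosl1 (-1.93), Myc (-1.89), Nr4a1 (-0.60), Ier5 (-0.58) and Socs3 (-0.52). Of the early response genes outside the members 15 of 37 were higher, led by Plk2 (2.68) and Ier5l (2.48), and 8 lower, led by Ptgs2 (-3.26). Of 22 other chaperones 7 were higher and 3 lower, and of 17 unfolded protein and amino acid stress genes 2 were higher and 4 lower. The chaperones Zfand2a (2.24) and Dnaja4 (2.12) were higher, while Hspb8 (-2.50) and Cryab (-2.38) were lower. Without the pericyte-like class, 26 members were higher and 6 lower, where 22.2% of all genes were higher and 23.0% lower. In that fit 49.0% of all calls were higher, against 59.9% with the class. Hspb1 (1.58) and Hspa8 (1.64) remained higher.

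**Figure D3:**
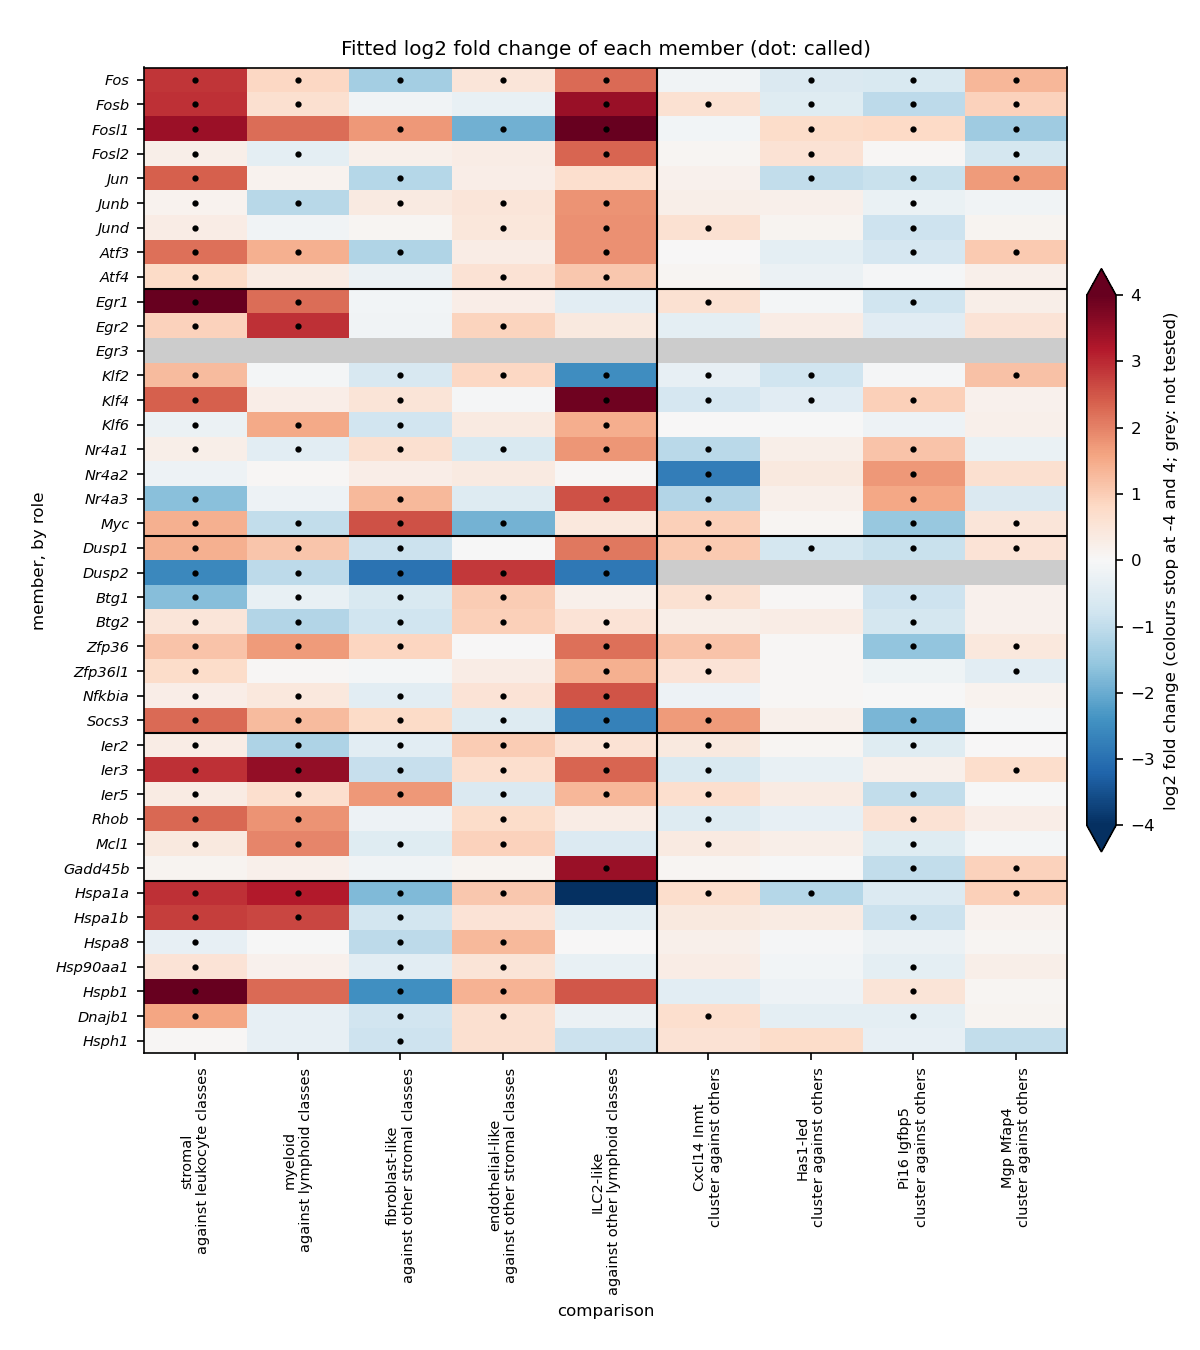
Fitted log2 fold change of each member (rows, by role) in the 9 comparisons (columns), red where the first group is higher and blue where it is lower, with a dot where the member was called and grey where it was not tested. Colours stop at 4 and -4. The column of stromal against leukocyte classes is mostly red with dots, and the heat shock rows of the fibroblast-like column are all blue with dots. Those of the ILC2-like column hold no dot, in a comparison that called few of all genes.

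Fibroblast-like cells formed 4 clusters. Those led by Cxcl14 and Inmt (155 and 169 cells), by Pi16 and Igfbp5 (118 and 123) and by Mgp and Mfap4 (81 and 82) took their names from markers, and another, led by Has1 (109 and 156), is called by its leading gene only. Early response members took 3.06 and 3.27% of UMIs in the Cxcl14 Inmt cluster, 2.94 and 3.21% in the Mgp Mfap4 cluster, 2.59 and 2.47% in the Has1-led cluster and 2.40 and 2.01% in the Pi16 Igfbp5 cluster. In both libraries the first pair of clusters lay above the second. Heat shock shares ran from 0.185% in the Pi16 Igfbp5 cluster to 0.239% in the Cxcl14 Inmt cluster in library 1, and were highest in the Cxcl14 Inmt cluster of library 2 as well, at 0.158%.

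Depth and marker levels moved with the clusters. The median cell of the Pi16 Igfbp5 cluster had 4871 and 3859 UMIs, against 3226 and 2898 in the Cxcl14 Inmt, 3342 and 2861 in the Mgp Mfap4 and 3851 and 2836 in the Has1-led cluster. With cells thinned to 1000 UMIs the median early response share was 3.05 and 3.1% in the Cxcl14 Inmt and 2.9 and 3.1% in the Mgp Mfap4 cluster. It was 2.55 and 2.3% in the Has1-led and 2.4 and 1.9% in the Pi16 Igfbp5 cluster. Thinning leaves the expected share of a cell unchanged, so these medians cannot show whether depth had a part in the order. The 10 fibroblast markers summed to 27454 and 24948 CPM in the Pi16 Igfbp5 cluster and to between 40514 and 56067 in the others. The 10 genes of the monocyte list, which include Fn1 (fibronectin), summed to 2947 and 2655 CPM in the Pi16 Igfbp5 cluster. Of these genes Chil3 and Ear2 were at 0 there. The list summed to 2012 and 1629 in the Has1-led and 496 to 618 in the other 2 clusters. With Fn1 in the list, these sums cannot be read as monocyte transcripts alone. The 10 macrophage markers stayed at or below 80.6 CPM in all 4 clusters. Mesothelial and blood endothelial markers stayed at or below 258 CPM in all 4. The part of these marker levels in the members' differences was not tested.

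The clusters divided the members between them by gene. Each was set against the mean of its 3 neighbours over 5959 genes, so the 4 comparisons share their sums and are given side by side. Egr3 and Dusp2 were not tested here, leaving 38 members. In the Cxcl14 Inmt cluster 14 members were higher and 7 lower (8.47 and 6.63% of all genes). In the Mgp Mfap4 cluster 11 were higher and 3 lower (5.12 and 2.62% of all genes). In the Pi16 Igfbp5 cluster 7 were higher and 20 lower (11.6 and 11.7%), and in the Has1-led cluster 2 were higher and 7 lower (1.34 and 0.352%). The member medians were 0.21, 0.18, -0.43 and 0.04, and those of all genes were -0.01, 0.02, 0.02 and 0.03.

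Several feedback genes were highest in the Cxcl14 Inmt cluster. Socs3 stood there at 2221 and 2506 CPM, against 1041 and 1143 in the Has1-led, 778 and 1150 in the Mgp Mfap4 and 446 and 333 in the Pi16 Igfbp5 cluster (Cxcl14 Inmt against the rest 1.69, SE 0.11, adjusted p = 4.55e-14). Zfp36 stood at 2930 and 3287 against a mean of 1603 and 1535 (1.14, SE 0.09, adjusted p = 2.12e-11). Dusp1 stood at 815 and 1002, with 645 and 764 in the Mgp Mfap4, 330 and 407 in the Has1-led and 373 and 310 in the Pi16 Igfbp5 cluster (1.05, SE 0.11, adjusted p = 3.5e-09). For all 3 both libraries of the Cxcl14 Inmt cluster lay above every other cluster, and 5 of the 7 feedback genes tested were higher. Zfp36 and Dusp1, and Myc as well, were also called higher in the Mgp Mfap4 cluster, so their higher levels were not particular to the Cxcl14 Inmt cluster. Myc (0.95) and Ier5 (0.68) were higher as well. Hspa1a was called at 0.72 (adjusted p = 0.0192), though its value was 1.16 in library 1 alone and 0.06 in library 2 alone. Of 34 early response genes outside the members 10 were higher and 4 lower, with Trib1 (1.36) and Nfkbiz (0.92) among the higher and Ctgf (-2.37) among the lower, and of 21 other chaperones 4 were higher.

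The NR4A genes, which encode orphan nuclear receptors without a known ligand, were low in the Cxcl14 Inmt cluster and high in the Pi16 Igfbp5 cluster. Nr4a1 stood at 1426 and 972 CPM in the Pi16 Igfbp5, 789 and 646 in the Has1-led, 496 and 615 in the Mgp Mfap4 and 305 and 415 in the Cxcl14 Inmt cluster. Nr4a2 stood at 415 and 254, 189 and 137, 149 and 225, and 16.4 and 45.8 in the same order of clusters. Klf4 stood at 3169 and 2600 in the Pi16 Igfbp5, 2087 and 1680 in the Mgp Mfap4, 1636 and 1088 in the Has1-led and 1337 and 1065 in the Cxcl14 Inmt cluster. For each of these 3 genes the Pi16 Igfbp5 cluster lay above all other clusters in both libraries.

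Against the other clusters, the Pi16 Igfbp5 cluster was higher for Nr4a2 (1.73, SE 0.19), Nr4a3 (1.54, SE 0.16), Nr4a1 (1.14, SE 0.12), Klf4 (0.94, SE 0.09), Fosl1 (0.81) and Rhob (0.57). It was lower for Socs3 (-1.83, SE 0.13, adjusted p = 6.09e-13), Zfp36 (-1.59, SE 0.11, adjusted p = 2.02e-13) and Myc (-1.52, adjusted p = 6.64e-10). Zfp36 there stood at 883 and 682 CPM against a mean of 2285 and 2403. Fosb (-1.03), Gadd45b (-0.97), Ier5 and 14 further members were lower too, and 6 of the 9 AP-1 and ATF factors were among the 20. In the Cxcl14 Inmt cluster the corresponding values were -2.78 (SE 0.29) for Nr4a2, -1.17 for Nr4a3, -1.09 for Nr4a1 and -0.67 for Klf4. Rgs2 (2.04) and Plk2 (1.58), outside the members, were higher in the Pi16 Igfbp5 cluster, and Trib1 (-1.31) was lower.

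Fos and Jun, which were lower in fibroblast-like cells than in the other stromal classes, were highest in the Mgp Mfap4 cluster. Fos stood there at 1724 and 3026 CPM, against 1059 and 1126 in the Cxcl14 Inmt, 947 and 810 in the Has1-led and 975 and 780 in the Pi16 Igfbp5 cluster (1.32, SE 0.13, adjusted p = 1.55e-09, with 0.79 in library 1 alone and 1.79 in library 2 alone). Jun stood at 1030 and 1600 against a mean of 441 and 399 (1.70, SE 0.13, adjusted p = 6.04e-12). Klf2 stood at 900 and 891, against 532 and 451 in the next cluster (1.17, adjusted p = 9.5e-10), and Atf3, a stress-induced ATF factor, at 412 and 594 against a mean of 245 and 245 (1.04). Both libraries of the Mgp Mfap4 cluster lay above every other cluster for Fos, Jun, Klf2 and Atf3. Fosl1 (-1.43), Fosl2 (-0.71) and Zfp36l1 (-0.43) were lower. Junb (-0.15) and Jund (0.11) did not pass the test there. Outside the members, Ctgf (1.29) and Irf1 (0.87) were higher and Errfi1 (-1.44) lower, in 5 and 4 of 34 early response genes.

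The Has1-led cluster differed least. Fosl1 (0.73) and Fosl2 (0.57) were higher, and Hspa1a (-1.13), Jun (-0.99), Klf2 (-0.79), Dusp1 (-0.70), Fos (-0.56), Fosb (-0.50) and Klf4 (-0.46) were lower. Jun there and Klf2 had the smallest adjusted p, 7.03e-05 each. Without library as a block 0 were called higher by edgeR, with 3 at an unadjusted p under 0.05, and 3 lower.

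**Figure D4:**
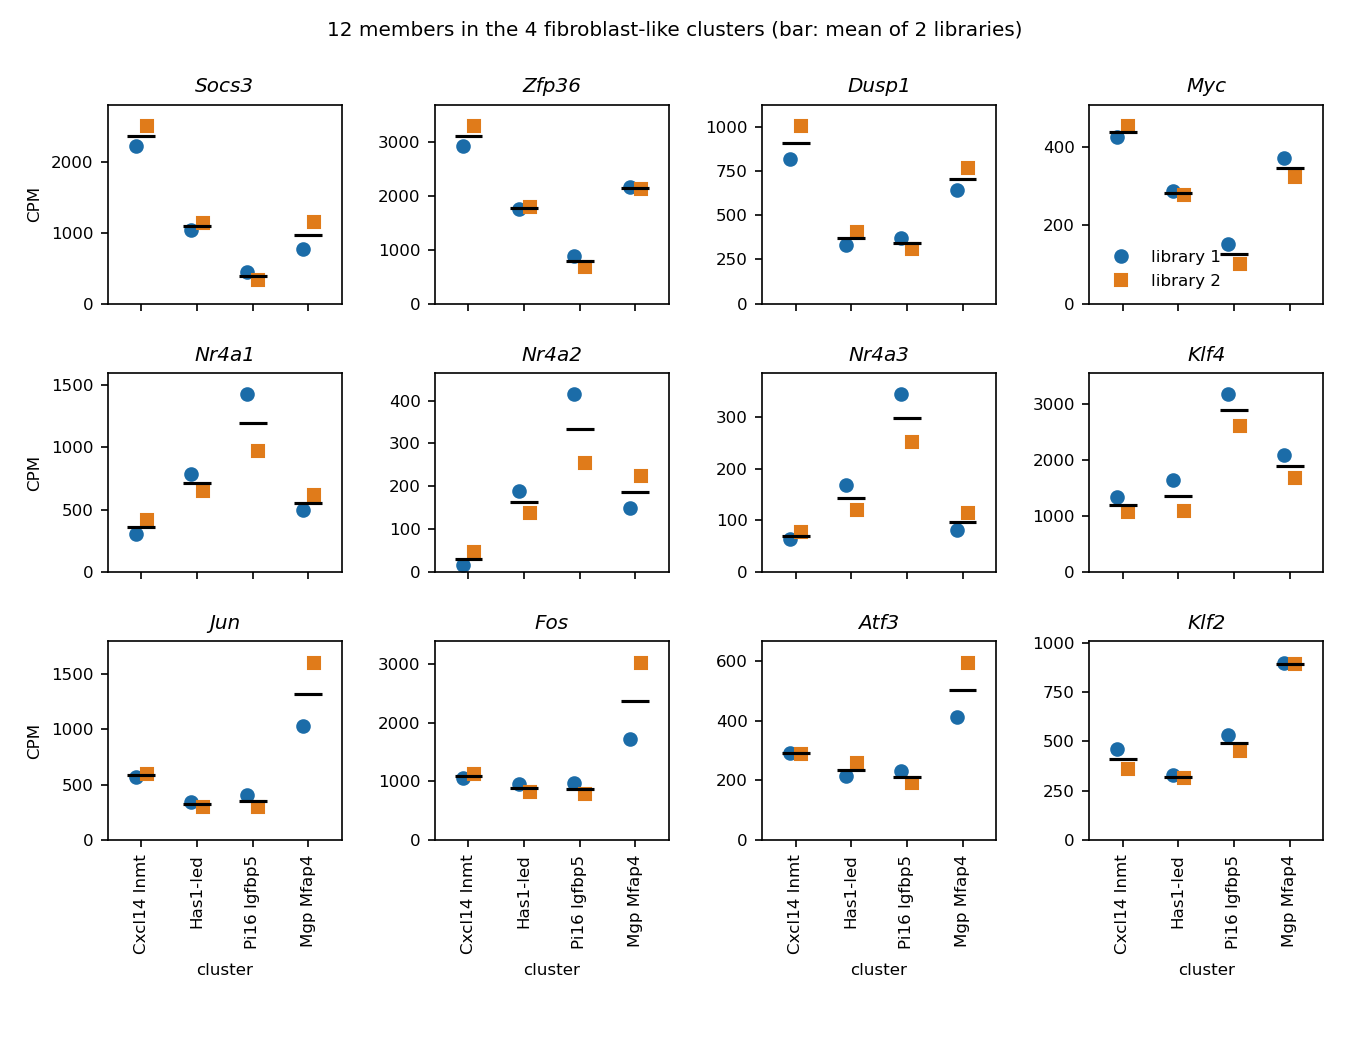
CPM of 12 members in the 4 fibroblast-like clusters, with a circle for library 1, a square for library 2 and a bar for their mean, each panel on its own linear axis from 0. Socs3, Zfp36, Dusp1 and Myc are highest in the Cxcl14 Inmt cluster, the 3 NR4A genes and Klf4 in the Pi16 Igfbp5 cluster, and Jun, Fos, Atf3 and Klf2 in the Mgp Mfap4 cluster.

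Hspa8, Junb and Egr1 were abundant in all 4 clusters. Hspa8 stood at 1118 and 709 CPM in the Cxcl14 Inmt, 1012 and 621 in the Has1-led, 1003 and 713 in the Mgp Mfap4 and 924 and 595 in the Pi16 Igfbp5 cluster, and was called in 0 of the 4 comparisons by edgeR (1 at an unadjusted p under 0.05) and in 0 by DESeq2. Junb stood at 4353 and 3815, 4306 and 3832, 3471 and 3297, and 4069 and 2613 in that order, and was lower in the Pi16 Igfbp5 cluster by a small margin (-0.27). Egr1 stood at 3028 and 3846 in the Cxcl14 Inmt, 2697 and 3021 in the Mgp Mfap4, 2256 and 2598 in the Has1-led and 1724 and 1691 in the Pi16 Igfbp5 cluster, an order in which no cluster overlapped the next. It was higher in the first (0.61) and lower in the last (-0.80). Hspb1 was highest in the Pi16 Igfbp5 cluster, at 226 and 166 CPM (0.52).

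The clusters were also formed with the members and the related lists allowed among the variable genes. In the matching clusters stayed 241 of 241 cells of the Pi16 Igfbp5 cluster, 264 of 324 (81.5%) of the Cxcl14 Inmt, 215 of 265 (81.1%) of the Has1-led and 123 of 163 (75.5%) of the Mgp Mfap4 cluster.

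The libraries differed in heat shock genes more than in early response genes. Among classes with at least 20 UMIs of a gene, Hspa8 and Hsp90aa1, the inducible HSP90, were higher in library 1 in 11 of 11 classes, and Dnajb1, an HSP40 co-chaperone, in 10 of 10. The median log2 ratio of library 2 to library 1 was -1.03 for Hspa1b, -0.77 for Hspa1a, -0.76 for Hsp90aa1, -0.69 for Hsph1, -0.54 for Hspb1, -0.43 for Dnajb1 and -0.38 for Hspa8. Junb was higher in library 1 in 10 of 11 classes, whereas Egr1 was higher in library 2 in 8 of 9 and Fosl2 in 9 of 11. Fos was divided, with 6 of 11 classes higher in library 1. With 1 animal per library, animal, handling and library cannot be told apart, and nothing was tested.

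The direction over members also depended on the class. In endothelial-like cells 37 of 39 members with at least 20 UMIs were higher in library 1, in B-like cells 28 of 31 and in the Pi16 Igfbp5 cluster 31 of 38. In monocyte-like cells 29 of 39 were higher in library 2. Erythroid markers, at 32229 CPM, are part of the total on which the CPM of endothelial-like cells of library 2 rest. The median log2 ratio of library 2 to library 1 over the members was -0.35 in that class. All 30 shares of UMIs compared without cells over 1% erythroid UMIs were classed as the same.

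**Figure D5:**
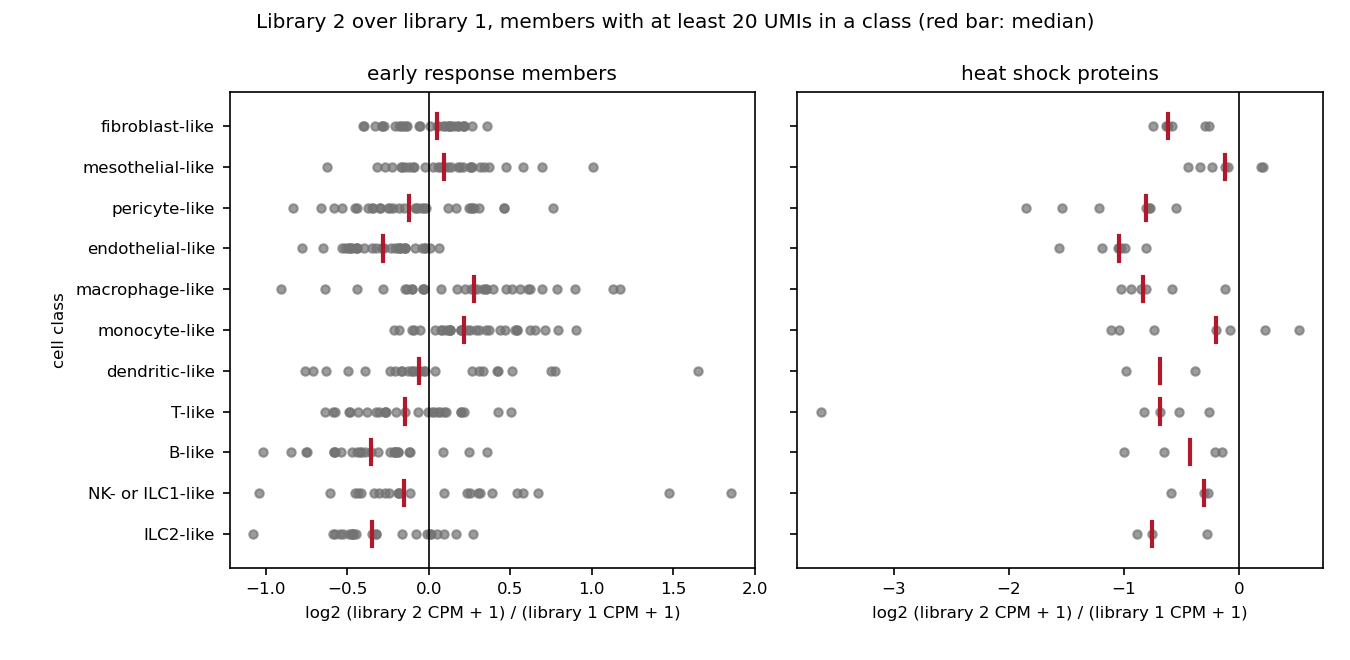
Log2 ratio of library 2 to library 1, on CPM + 1, for each member with at least 20 UMIs in a class (grey points), with the median of a class as a red bar, for early response members (left) and heat shock proteins (right). On the right the median lies below 0 in all 11 classes, while on the left the medians lie on both sides of 0.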

How the data were processed

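Single-cell 3′ libraries of 2 mice were analysed. The authors deposited a matrix of raw UMI counts, not normalized, per the file headers. The submitters' processing notes name Cell Ranger and mm10, a version being not given in the sources used here. Barcode suffix 1 or 2 was matched to the mouse by number. The members and the lists of related genes, grouped by known function, were chosen with earlier results of these data known.

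Barcodes under 200 genes or above 10% mitochondrial UMIs were left out, and Scrublet (scanpy 1.11.5) removed 39 and 4 doublets. Cells were scaled to 10000, and 2000 variable genes without members and the 3 related lists, 30 principal components, 15 neighbours and Leiden clustering (resolution 1.0) were used. Clusters were named by marker fold, with at least 4 markers above 2-fold, a minimum chosen after seeing the data. A cluster of 27 cells led by Il13 stayed unnamed.

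Counts were summed per library and class (22 sums) and tested with edgeR 4.0.16 in R 4.3.3 (TMM, filterByExpr, quasi-likelihood F-test, Benjamini-Hochberg over all genes), with library as a block because each animal gave every class. Classes weigh equally, as means of logarithms. Genes at 0 in some sums have fitted values that are no bounds. P-values rest on 2 animals. The fit was tested on simulated data. Named with full statistics were up to 6 called members per direction whose average log2 CPM reached 5 and whose sign was the same in both libraries; 7 genes were given in every class. Cells with at least 1000 UMIs were thinned to 1000 UMIs for per-cell shares, and cells with fewer were left out of these. Intervals were not computed, and the limit of a count of 0 is 3 counts. Alternatives were DESeq2 1.42.0 size factors and Wald test, no filter, no block, other resolutions (0.5, 2.0), members allowed in clustering, a stricter cell filter (500 genes, 5%), no doublet removal, cells summed per side, other thinning, and single libraries. Fits without the pericyte-like class, without the monocyte-like class and without cells over 1% erythroid UMIs were chosen after seeing the data. Positions are from GENCODE M21, promoters from RefSeq.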

Additional observations from a re-analysis of the deposited data

How the results depend on the processing

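The log2 fold changes of the members named by the rule were followed over the alternatives that gave a value. Of these, 1145 kept their direction and, where a test was made, their call, 68 lost the call, 9 moved and 1 reversed. Among the 1145 were 88 values without library 1 and 95 without library 2, which were not tested and so have no call. The values that moved came from these single libraries only, 8 without library 1 and 1 without library 2. The reversed value was Myc in myeloid against lymphoid classes, 0.89 at resolution 0.5. Called members outside the rule also turned sign: Zfp36 in Mgp Mfap4 at resolution 0.5 and Klf4 in the Has1-led cluster without doublet removal. Members lower in stromal classes (5) numbered 3 with DESeq2 size factors, 3 with DESeq2's Wald test, 3 at resolution 0.5, 3 without doublet removal and 8 with cells summed per side, where Egr2, Fosl2, Mcl1 and Nfkbia, also outside the rule, turned sign. Members lower in myeloid classes (8) numbered 5 without a filter and 5 at resolution 0.5. With the Wald test, Cxcl14 Inmt had 4 lower (7), Pi16 Igfbp5 13 lower (20), Mgp Mfap4 7 higher (11) and 1 lower (3), and the Has1-led cluster 0 higher (2), with 3 at an unadjusted p under 0.05 by DESeq2. That cluster had 0 higher and 3 lower (7) with no replicate block, 5 higher with members allowed in clustering, 1 higher and 3 lower at resolution 2.0, 4 higher with the strict filter and 3 lower without doublet removal. Mgp Mfap4 had 1 lower with the strict filter and 1 without doublet removal. The cause was not tested. The replicate block changed no other member count by over 1.5 times.

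Over all genes, the Wald test called 183 and 152 in Cxcl14 Inmt (505 and 395), 30 and 12 in Has1-led (80 and 21), 234 and 335 in Pi16 Igfbp5 (693 and 695), 140 and 60 in Mgp Mfap4 (305 and 156) and 82 lower in ILC2-like cells (162). Without the pericyte-like class 1648 genes were lower in endothelial-like cells (923), and with cells summed per side 3014 lower in stromal classes (1633), which moved the higher share of calls from 63.0 to 52.3%. With no replicate block 258 genes were lower in Cxcl14 Inmt, and 40 higher and 6 lower in Has1-led cells. Has1-led cells had 128 higher without a filter, 150 with members allowed, 130 without doublet removal and 6 lower at resolution 2.0, where Pi16 Igfbp5 had 322 and 259. Mgp Mfap4 had 235 lower without a filter and 196 and 78 with the strict filter. The all-gene median of the stromal comparison moved by at most 0.28, without a filter. Hspa1a calls between clusters were lost with the Wald test (adjusted p = 0.428 in Cxcl14 Inmt and 0.261 in Mgp Mfap4), as was that in endothelial-like cells (0.271). Dendritic-like cells and low members (Fosl1, Hspa1b) rest on few UMIs.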

Other observations

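Within the T-like class, 1 small cluster of 10 and 13 cells led by Tnfrsf4, Ikzf2 and Il10 had more early response transcripts than the rest. Its early response share was 2.43% in both libraries, against 1.59 and 1.52% in the cluster led by Cd28 and 1.31 and 1.17% in the one led by Cd163l1. Junb stood at 6424 and 6552 CPM there and Dusp1 at 1188 and 884. Beside 5 T markers, 7 ILC2 markers were above 2-fold in this cluster. ILC2-like cells had an early response share of 3.58 and 2.83%, with Junb at 10018 and 6730 CPM and Dusp1 at 718 and 477. The unnamed cluster led by Il13, of 5 and 22 cells, had an early response share of 3.17 and 2.31%. These are values of few cells and were not tested.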
